A study of Homo sapiens with 156 samples.

Results

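The genes described here are the zinc finger genes of human chromosome 19, taken as every GENCODE protein-coding gene on that chromosome whose symbol starts with ZNF. The deposited tables held 249 of them among 59939 identifiers, and 264 further ZNF coding genes lay on other chromosomes. A gene entered the tests of a cell line when its level was 1 FPKM (fragments scaled by transcript length and by library size) or more in at least 2 libraries of that line. This held for 228 of the 249 in MV411 cells, 233 in THP1 cells and 190 in NOMO1 cells. In all, 242 passed in some line, 186 passed in all 3 lines, and 7 (ZNF625, ZNF563, ZNF676, ZNF729, ZNF30, ZNF835 and ZNF135) passed in none. In the DMSO libraries alone 202, 218 and 172 passed in MV411, THP1 and NOMO1 cells. The remaining 26, 15 and 18 entered through treated libraries, so for those a difference from DMSO was built into the choice.

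Most chromosome 19 zinc finger genes encode proteins with a KRAB domain at one end and an array of C2H2 zinc fingers at the other. The fingers bind DNA, many of them at transposable elements, and the KRAB domain recruits the corepressor TRIM28, which brings histone H3 lysine 9 methylation. The genes arose by tandem duplication, stand in clusters along the chromosome, and are known to carry DNA methylation and heterochromatin marks themselves in many tissues and tumours.

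The study measured RNA by paired-end sequencing in 156 libraries from 3 acute myeloid leukaemia lines that carry KMT2A rearrangements, MV411, THP1 and NOMO1, with 52 libraries a line in 26 groups of 2. GSK3685032 (GSK032), an inhibitor of the maintenance DNA methyltransferase DNMT1, and DAC (decitabine, a nucleoside that traps DNA methyltransferases) were given at 400 nM for 1, 2, 4 or 6 days. At day 4 both were also given at 3.2, 16, 80, 2000 and 10000 nM. GSK3484862 (GSK862, another DNMT1 inhibitor) at 1000 nM and GSK3510477 (GSK477, known as an inactive control compound) at 10000 nM were measured at days 2 and 4. The solvent DMSO gave the controls of each line at days 1, 2, 4 and 6, 8 libraries a line. The labels name no genetic change, and every group is a line under 1 compound, dose and day. The labels do not say whether the 2 libraries of a group came from separate cultures, so the p-values measure the spread between these libraries, which may be technical.

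The values analysed are FPKM without counts, and the total fragments behind a library are not given, so no counting interval is printed. In units of 1000 FPKM, the sum over genes ranged over libraries between 1331 and 3073 in MV411, between 1263 and 2325 in THP1 and between 1312 and 2052 in NOMO1. Markers of leukaemia cells averaged 1 FPKM or more in DMSO for 8 of 8 genes in MV411, 7 of 8 in THP1 and 8 of 8 in NOMO1. CD3E and CD2 of T cells, MS4A1 of B cells, CDH5 of endothelium, LUM of fibroblasts and HBB of erythroid cells were under 0.1 FPKM in all 3 lines. Other markers of these lists were higher. In MV411, THP1 and NOMO1, 0, 0 and 1 of 3 T cell, 0, 1 and 1 of 3 B cell, 2, 1 and 3 of 4 epithelial, 0, 0 and 1 of 4 fibroblast and 1, 1 and 1 of 3 endothelial markers averaged 1 FPKM or more in DMSO. The highest means in NOMO1 were 8.51 FPKM for a T cell, 1.31 for a B cell, 26.7 for an epithelial, 5.08 for a fibroblast and 172 for an endothelial marker. The marker sums also moved in treated libraries. In NOMO1 the T cell sum reached 190 FPKM over all libraries, against at most 12.6 in DMSO. The epithelial sum there reached 221, against at most 40.7. The leukaemia sum there fell to 1727, against at least 5628 in DMSO. In MV411 the leukaemia sum rose to 9620, against at most 2067 in DMSO. The part of such markers in the results was not tested. A lower level in these bulk libraries cannot separate less RNA per cell from fewer cells of a kind.

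The promoters of the genes on which the results turn are shown first. Each window runs from 250 bases before to 50 after the RefSeq transcript start, on GRCh38.p14, read 5′ to 3′ on the strand of the gene. The 4 genes below lie in one cluster, C8, described further on. Capitals mark the stretch TTTCCTGNNNACCCGGAAG, the runs of 7 or more letters that the promoters of ZNF534, ZNF880 and ZNF841 share at the same spacing. Those 3 genes were chosen because they rose. Only ZNF578 was added by the search itself.
ZNF534, chr19:52428898-52429197, plus strand: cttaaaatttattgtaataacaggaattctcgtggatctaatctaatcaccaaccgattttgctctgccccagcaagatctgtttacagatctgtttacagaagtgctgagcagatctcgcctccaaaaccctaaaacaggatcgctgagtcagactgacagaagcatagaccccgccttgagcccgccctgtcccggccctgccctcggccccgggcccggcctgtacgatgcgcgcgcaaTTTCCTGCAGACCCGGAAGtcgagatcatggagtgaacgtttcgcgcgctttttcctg
ZNF880, chr19:52369673-52369972, plus strand: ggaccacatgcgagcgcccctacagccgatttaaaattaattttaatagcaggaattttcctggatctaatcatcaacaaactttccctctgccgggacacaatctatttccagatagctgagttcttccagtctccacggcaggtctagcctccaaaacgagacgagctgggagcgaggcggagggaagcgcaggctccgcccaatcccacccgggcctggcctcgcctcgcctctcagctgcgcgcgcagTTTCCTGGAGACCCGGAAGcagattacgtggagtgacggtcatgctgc
ZNF841, chr19:52095716-52096015, minus strand: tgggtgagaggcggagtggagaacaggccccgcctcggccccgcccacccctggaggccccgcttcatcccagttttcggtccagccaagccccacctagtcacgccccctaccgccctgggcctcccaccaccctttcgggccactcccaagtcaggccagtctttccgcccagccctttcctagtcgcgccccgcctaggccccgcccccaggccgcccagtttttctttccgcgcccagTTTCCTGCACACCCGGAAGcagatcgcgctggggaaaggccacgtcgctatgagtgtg
ZNF578, chr19:52453303-52453602, plus strand: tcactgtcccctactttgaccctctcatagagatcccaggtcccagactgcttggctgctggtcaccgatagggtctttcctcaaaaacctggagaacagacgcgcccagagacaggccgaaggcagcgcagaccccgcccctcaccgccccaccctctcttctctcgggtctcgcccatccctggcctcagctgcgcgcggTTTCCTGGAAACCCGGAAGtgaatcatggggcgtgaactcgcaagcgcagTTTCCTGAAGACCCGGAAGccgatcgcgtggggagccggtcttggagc

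The stretch was found, on either strand, in 4 of 35116 RefSeq promoters of this length (0.0114%), in 4 of the 33 matched promoters of that cluster, and in 0 of 285 promoter entries of ZNF genes elsewhere. ZNF578 held 2 copies and the other 3 genes 1 copy each. Its end, CCGGAAG, is common by itself: it was in 3603 of 35116 promoters (10.3%), in 99 of 217 promoters of chromosome 19 ZNF genes (45.6%) and in 83 of 285 elsewhere (29.1%). These matches are descriptions of letters and were not tested against expression.

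ZNF112 and ZNF560 had the largest rises of the family at 400 nM and day 4 and are shown with each CG dinucleotide in capitals, since CG is where DNMT1 maintains methylation. No methylation was measured in these libraries.
ZNF112, chr19:44356655-44356954, minus strand: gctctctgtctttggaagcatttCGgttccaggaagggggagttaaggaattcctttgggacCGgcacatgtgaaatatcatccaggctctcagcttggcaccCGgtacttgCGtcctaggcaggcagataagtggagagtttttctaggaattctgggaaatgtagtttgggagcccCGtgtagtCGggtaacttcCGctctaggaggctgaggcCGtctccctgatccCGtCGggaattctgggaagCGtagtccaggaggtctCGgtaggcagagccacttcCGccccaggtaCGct
ZNF560, chr19:9498567-9498866, minus strand: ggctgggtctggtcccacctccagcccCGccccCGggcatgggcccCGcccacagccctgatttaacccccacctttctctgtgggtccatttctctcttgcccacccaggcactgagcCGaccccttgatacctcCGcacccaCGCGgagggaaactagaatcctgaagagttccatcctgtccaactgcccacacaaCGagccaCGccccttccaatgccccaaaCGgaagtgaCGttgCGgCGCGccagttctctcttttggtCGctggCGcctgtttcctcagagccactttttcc

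The window of ZNF112 held 14 CG dinucleotides and that of ZNF560 held 16; it lies at the RefSeq start of ZNF112, which is inside the longer GENCODE 29 gene (44326555 to 44367217). The 217 matched promoters of chromosome 19 ZNF genes had a median of 20 CG dinucleotides, against 23 in ZNF promoters elsewhere and 14 in all promoters.

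In DMSO the family was expressed at low to moderate levels, and unevenly by line and by cluster. The median of the 249 genes' mean FPKM over 8 DMSO libraries was 6.61 in MV411, 6.20 in THP1 and 3.19 in NOMO1, where the SD of the library medians was 0.481, 0.286 and 0.155 in the same order. ZNF genes elsewhere had medians of 6.01, 6.22 and 4.84 FPKM. The lines were deposited as separate tables, so levels are set side by side without a test. With every library scaled to the same FPKM sum the chromosome 19 medians were 6.26, 5.92 and 3.13.

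ZNF146, which encodes a protein of fingers alone, was the highest in each line. It had a lowest, median and highest of 94.0, 114.5 and 127.1 FPKM over the 8 DMSO libraries of MV411, of 60.1, 73.3 and 86.1 in THP1, and of 45.1, 48.5 and 55.3 in NOMO1. Its MV411 libraries all lay above those of THP1 and NOMO1. ZNF787 was second in MV411 (mean 62.7 ± 10.9 FPKM, SD, n = 8) and NOMO1 (42.7 ± 3.03), and ZNF121 came next after the leading pair in all 3 lines. ZNF93, known as a repressor of LINE-1 retrotransposons, was second in THP1 at 43.1 ± 3.78 FPKM. It averaged 18.2 ± 1.37 FPKM in MV411 and 16.0 ± 1.32 in NOMO1 (SD, n = 8 in each line).

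At the other end, 21 of 249 genes averaged under 0.1 FPKM in MV411, 9 in THP1 and 36 in NOMO1. Of these, 8 were under 0.1 in all 3 lines: ZNF112, ZNF135, ZNF534, ZNF560, ZNF676, ZNF681, ZNF729 and ZNF835. A further 17 were under 0.1 in NOMO1 alone, 3 in MV411 alone and 0 in THP1 alone.

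Position was described by grouping genes less than 1 Mb apart on GRCh38, which gave 9 clusters of at least 5 genes and 11 genes outside them. They are called C1 to C9 from the short-arm end. C4 runs from ZNF101 to ZNF254 (chr19:19668796-24129961), C8 from ZNF175 to ZNF331 (chr19:51571298-53580269) and C9 from ZNF628 to ZNF446 (chr19:55476332-58481230). C4 set NOMO1 apart: the median of its 37 genes in DMSO was 0.200 FPKM in NOMO1, with 14 genes under 0.1, against 6.88 in MV411 and 8.86 in THP1. Only 14 of the 37 passed the level filter in NOMO1, against 29 in MV411 and 35 in THP1. C3 (ZNF653 to ZNF791, 26 genes) was lowest in MV411, at a median of 1.07 FPKM, against 4.34 in THP1 and 2.31 in NOMO1. C8 was close in level across lines, with medians of 5.48, 6.72 and 5.16 FPKM in MV411, THP1 and NOMO1.

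**Figure D1:**
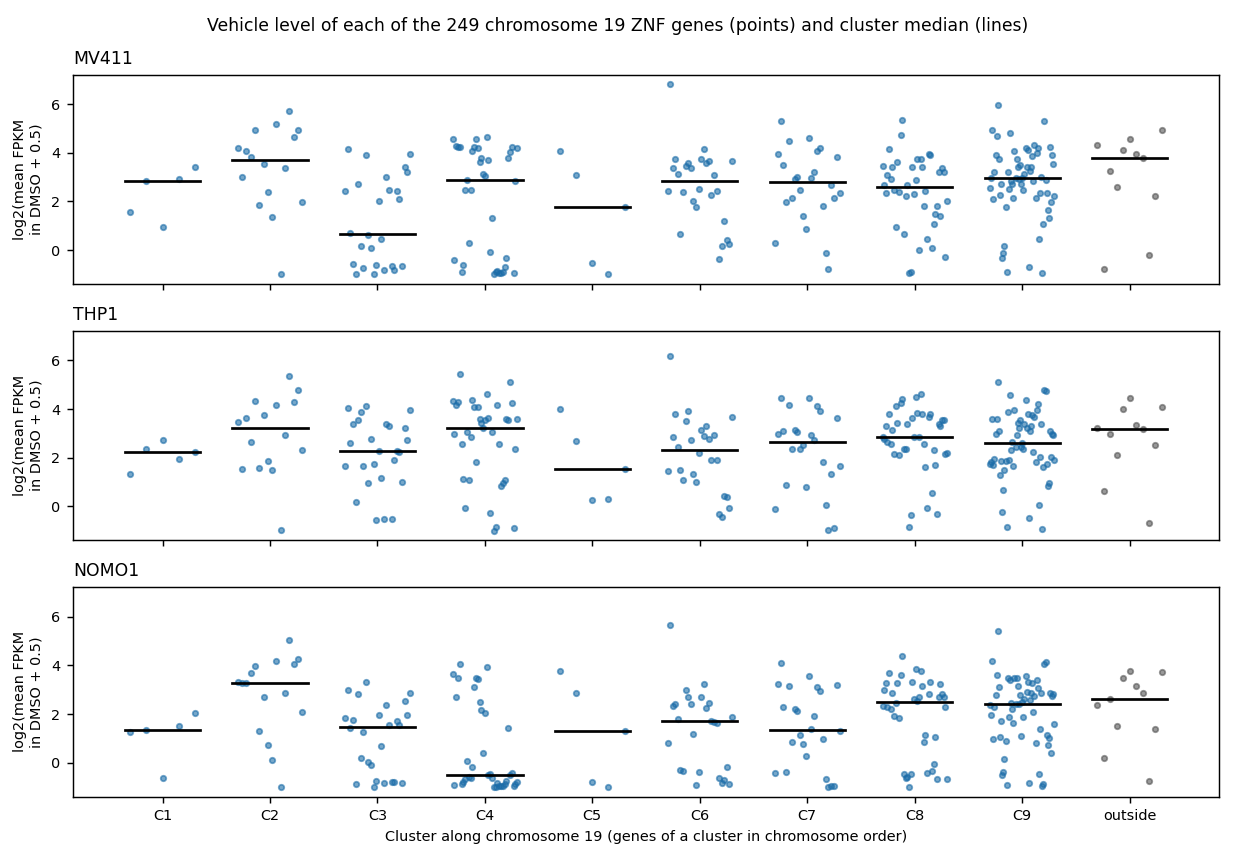
Mean FPKM over the 8 DMSO libraries for each chromosome 19 zinc finger gene, drawn as log2(FPKM + 0.5) by cluster along the chromosome (horizontal axis) and by cell line, with lines at cluster medians. The median of C4 is 0.200 FPKM in NOMO1, against 6.88 in MV411 and 8.86 in THP1.

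The main question of the design is what DNMT1 inhibition by GSK032, and treatment with DAC, did to these genes at 400 nM for 4 days. A gene is called when limma, fitted to log2(FPKM + 0.5) over all genes of the line, gave a Benjamini-Hochberg adjusted p below 0.05 and a log2 fold change of 1 or more in size. Fold changes on this scale understate the change of low genes.

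In MV411 cells GSK032 raised 30 of 228 chromosome 19 ZNF genes and lowered 0, and DAC raised 23 and lowered 0. For GSK032 the 30 were 13.2% of the genes tested, against 6.55% called higher among all 22007 genes. For DAC the 23 were 10.1%, against 6.86%. Among all genes, GSK032 lowered 2.76% and DAC 3.34%, while all calls in the family were higher. Part of these counts comes from genes that passed through treated libraries. Among the 202 that passed in DMSO alone, GSK032 raised 19 (9.41%), against 3.60% of all 16648 genes passing in DMSO, and DAC raised 14 (6.93%), against 4.25%.

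Of the ZNF genes on other chromosomes in MV411, 12 of 223 rose and 1 fell with GSK032, and 11 rose and 2 fell with DAC. The median log2 fold change of the chromosome 19 genes was 0.24 with GSK032, with 74.1% of genes above 0, and 0.31 with DAC, with 78.5% above 0. ZNF genes elsewhere had medians of -0.01 and 0.04. Other coding genes of chromosome 19 had a median of -0.11 with GSK032, with 57 of 830 higher and 21 lower. The median of all genes stayed within 0.085 of 0 in every one of the 81 comparisons.

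In THP1 cells the calls were few. GSK032 raised 1 of 233 genes (0.429%, against 1.94% of all genes called higher) and DAC raised 6 and lowered 1 (2.58% higher, against 6.23% of all genes, with 1.93% lower). These shares lie under the background. The medians were 0.08 with GSK032 and 0.20 with DAC, against -0.03 and 0.02 for ZNF genes elsewhere, and 66.5% and 78.1% of the genes were above 0. The sign of the DAC median depends on the scaling: with equal FPKM sums it was -0.12, where the median of all genes moved to -0.34. In MV411 the same scaling gave a GSK032 median of 0.52 with 45 genes raised, where the median of all genes moved to 0.25. Of the 218 genes that passed in DMSO alone, 0 were called with GSK032, and 1 rose and 1 fell with DAC. The share of all THP1 genes passing in DMSO is not given beside these counts, which are a description.

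In NOMO1 cells GSK032 at 400 nM gave 0 calls among 190 genes by limma, against 2.55% of all genes called higher and 0.376% lower. At an unadjusted p under 0.05 there were 71 genes, 58 of them higher. An adjusted p below 0.05 was reached by 44, 38 of them higher, all with smaller changes than the fold minimum. No share of all genes at these cuts is given, here or below. Such counts are thus descriptions and not a trait of the family. DAC raised 19 (10.0%, against 13.2% of all genes) and lowered 1, with 5.94% of all genes called lower. The median was 0.11 with GSK032 and 0.18 with DAC. In the DMSO-passing 172, DAC raised 8 and lowered 1. The share of all NOMO1 genes passing in DMSO is not given beside these, so no excess is read from them. The share of calls did not exceed the background in THP1 or NOMO1 for either compound. GSK032 and DAC share their DMSO libraries, so their values are given side by side and no overlap between them is counted.

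**Figure D2:**
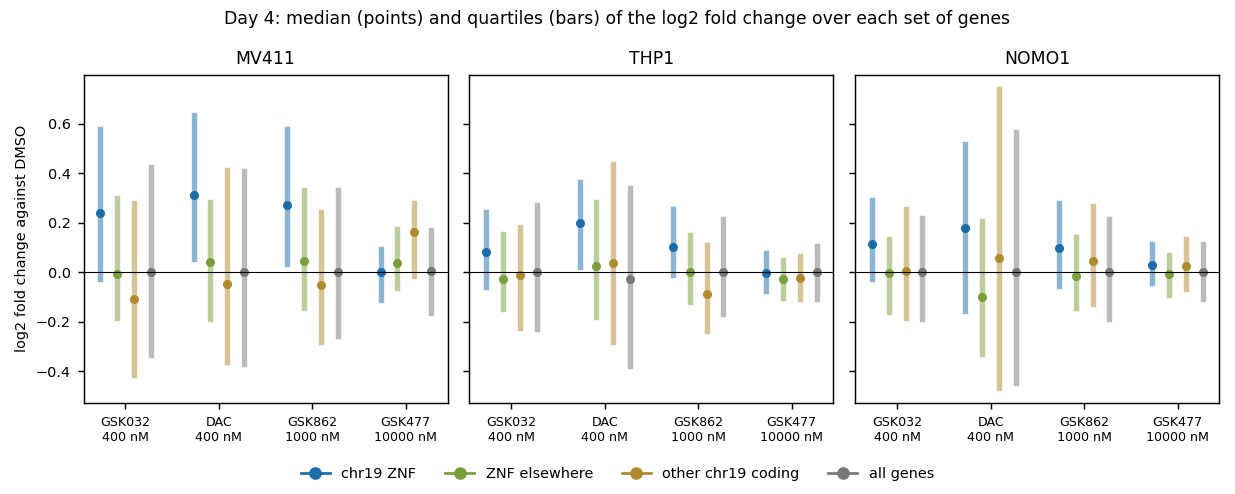
Median and quartiles of the log2 fold change against DMSO at day 4 for chromosome 19 ZNF genes, ZNF genes elsewhere, other coding genes of chromosome 19 and all genes tested, with GSK032 and DAC at 400 nM, GSK862 at 1000 nM and GSK477 at 10000 nM in each line. The chromosome 19 ZNF median is 0.24 with GSK032 and 0.31 with DAC in MV411, and -0.001 with GSK477.

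Of the clusters, C8, in chromosome band 19q13, held the most genes called higher in MV411. There, 15 of 40 C8 genes rose with GSK032 (37.5%, median log2 fold change 0.58) and 12 rose with DAC (30.0%, median 0.63), against the 6.55% and 6.86% of all genes given above. Of the C8 genes, ZNF534, ZNF578, ZNF600, ZNF415 and ZNF813 passed in MV411 only with treated libraries, so a rise was built into their choice. Cluster counts were not repeated for genes passing in DMSO alone. The C8 sets of THP1 and NOMO1 also hold genes that passed only with treated libraries. The neighbouring and larger C9 had 6 of 57 higher with GSK032 (median 0.24) and 4 with DAC (median 0.29). C4, the other large group, had 2 of 29 with GSK032 and 1 with DAC. The 9 tested genes outside clusters had 0 calls and medians of -0.24 with GSK032 and -0.29 with DAC.

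C8, among the largest clusters, also had the highest DAC count in the other lines. In NOMO1, DAC raised 7 of 36 C8 genes (19.4%, median 0.53), and in THP1 it raised 3 of 40 (7.50%, median 0.33). The background was 13.2% of all NOMO1 genes and 6.23% of all THP1 genes, so the THP1 share was near it. The THP1 genes were ZNF534, ZNF578 and ZNF880. Of these, ZNF534 and ZNF578 passed there only with treated libraries, and the ZNF880 change sat at the fold minimum. GSK032 raised 0 of the C8 genes in both lines at this dose, with medians of 0.15 in THP1 and 0.19 in NOMO1. No test compares clusters, since neighbouring genes are related in sequence and are not replicates. With a gap of 500 kb, which gave 10 clusters, C8 held the same genes and counts.

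**Figure D3:**
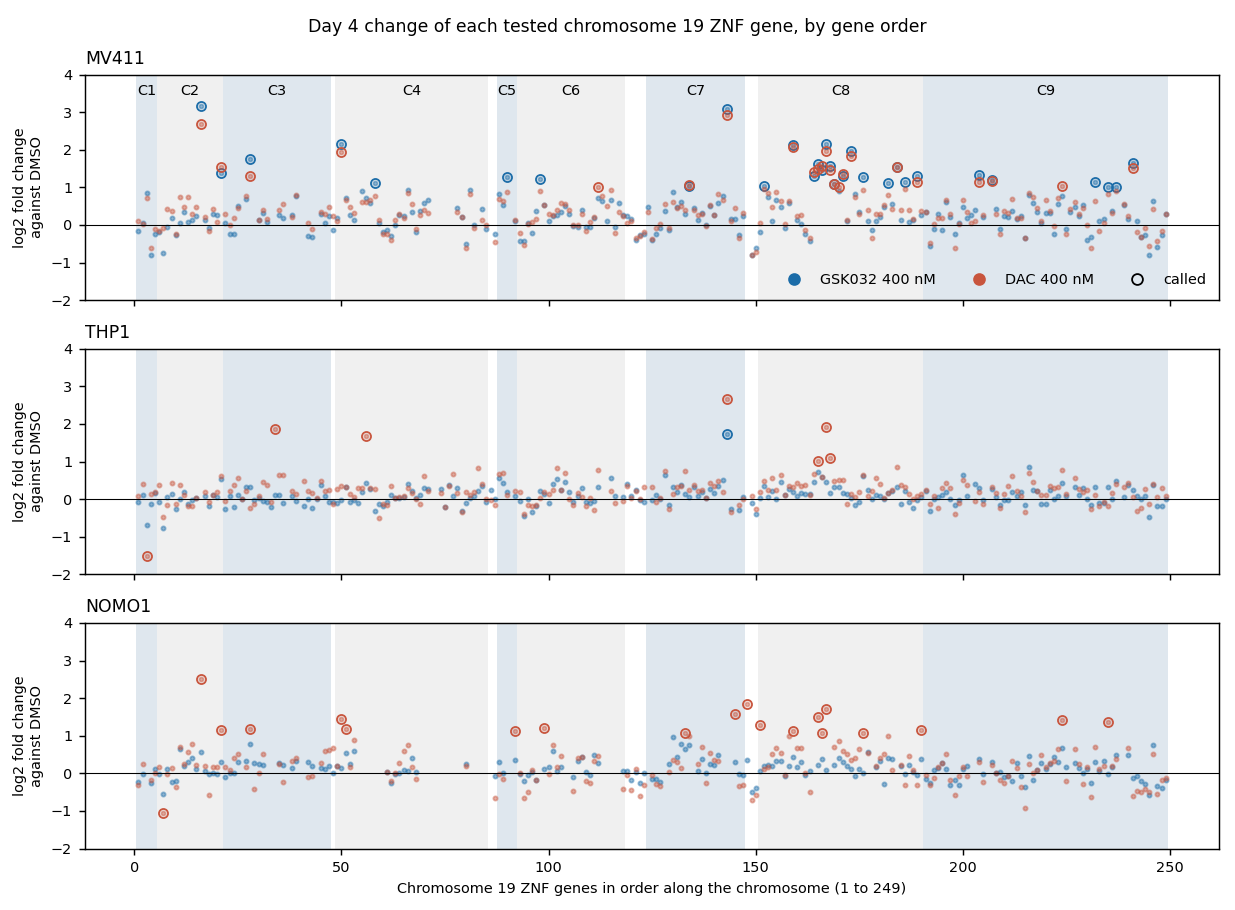
Log2 fold change at 400 nM and day 4 of each tested chromosome 19 ZNF gene in chromosome order (horizontal axis), by line and compound, with clusters C1 to C9 shaded and called genes ringed. In MV411 the ringed genes are densest in C8, with 15 of 40 for GSK032 and 12 of 40 for DAC.

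ZNF560 (in C2, chr19:9466507-9498607, minus strand), a poorly studied family member, gave the largest rise in MV411 with GSK032. It reached 4.06 and 3.90 FPKM with GSK032 and 2.42 and 3.09 with DAC, and was listed at 0 in both day 4 DMSO libraries. The log2 fold change was 3.16 ± 0.16 (SE) with GSK032 and 2.70 ± 0.16 with DAC, with adjusted p of 1.1e-15 and 6.4e-14 in limma. In NOMO1 it stood at 0.246 and 0.229 FPKM with GSK032, below the fold minimum, at 2.52 and 2.21 with DAC, and again at 0 in DMSO; DAC raised it by 2.52 ± 0.12 on the log2 scale. In MV411 and NOMO1 it passed the level filter only with treated libraries, so a rise over DMSO was built into its choice. In THP1 it did not pass the filter.

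ZNF112 (C7, chr19:44326555-44367217, minus strand) was the only gene called with GSK032 at 400 nM in both MV411 and THP1. In MV411 it had 4.68 and 3.60 FPKM with GSK032 and 3.96 and 3.27 with DAC, against 0.0476 and 0.0390 in DMSO. The changes were 3.08 ± 0.17 and 2.92 ± 0.17 (adjusted p 2.3e-14 and 1.1e-13, limma). In THP1 it had 0.921 and 1.47 FPKM with GSK032 and 2.62 and 2.82 with DAC, against 0.00360 and 0.00402 in DMSO, with changes of 1.73 ± 0.15 and 2.68 ± 0.15. In both lines ZNF112 passed the level filter only with treated libraries, so a rise over DMSO was built into its choice. In NOMO1 it stayed under the level filter, at 0.571 and 0.292 FPKM with DAC.

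ZNF534 (C8, chr19:52429187-52452315, plus strand), reported to act on HERVH retroviral elements, was called with DAC in all 3 lines. In each line it passed the level filter only with treated libraries, so a rise over DMSO was built into its choice. MV411 libraries had 1.92 and 1.64 FPKM with GSK032 and 1.59 and 1.42 with DAC, against 0.0175 and 0 in DMSO (2.16 ± 0.13 and 1.98 ± 0.13). THP1 libraries had 0.260 and 0.242 with GSK032 and 1.57 and 1.59 with DAC, against 0.0560 and 0.0403 in DMSO; DAC raised it by 1.92 ± 0.12. NOMO1 libraries had 0.0358 and 0.0323 with GSK032 and 1.2 and 1.07 with DAC, with DMSO at 0, and DAC raised it by 1.71 ± 0.10.

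ZNF880 (C8, chr19:52369917-52385795, plus strand), the other gene called with DAC in all 3 lines, was already expressed in DMSO in MV411 and THP1. In NOMO1 it passed the level filter only with treated libraries. It had 14.5 and 11.4 FPKM with GSK032 and 11.9 and 11.3 with DAC, against 4.72 and 3.06 in DMSO, in MV411. NOMO1 libraries had 0.236 and 0.198 with GSK032 and 1.2 and 1.33 with DAC, against 0.129 and 0.0984 in DMSO (1.51 ± 0.18 with DAC). In THP1 it had 8.95 and 8.32 FPKM with DAC, against 4.27 and 3.85 in DMSO, a change of 1.00 ± 0.12 that sits at the fold minimum and fell to 0.68 with equal FPKM sums, 0.93 with a pseudocount of 1, 0.94 without DMSO replicate 2 and 0.95 without DAC replicate 1.

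ZNF841 (C8, chr19:52064466-52095765, minus strand), a KRAB-type member, started from different levels in the lines. MV411 libraries had 8.49 and 8.39 FPKM with GSK032 and 7.62 and 8.67 with DAC, against 1.56 and 1.52 in DMSO (2.13 ± 0.14 and 2.08 ± 0.14). NOMO1 libraries had 11.9 and 11.7 with DAC, against 5.25 and 4.96 in DMSO (1.13 ± 0.12). THP1 libraries had 19.8 and 19.4 with GSK032 and 22.9 and 20.1 with DAC, against 17.4 and 17.0 in DMSO, and were not called.

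ZNF578 (C8, chr19:52453576-52512154, plus strand), which came in through the promoter search and not by size of change, had 1.08 and 1.1 FPKM with GSK032 and 1.07 and 0.856 with DAC in MV411, against 0.0323 and 0.0314 in DMSO. DAC raised it by 1.45 in MV411 and by 1.09 ± 0.19 in THP1 on the log2 scale. With a pseudocount of 1 the DAC changes were 0.92 in MV411 and 0.75 in THP1, and in THP1 the change was 0.92 with equal FPKM sums and 0.97 without DAC replicate 2, all under the fold minimum. In MV411 and THP1 it passed the level filter only with treated libraries, and in NOMO1 it did not pass.

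**Figure D4:**
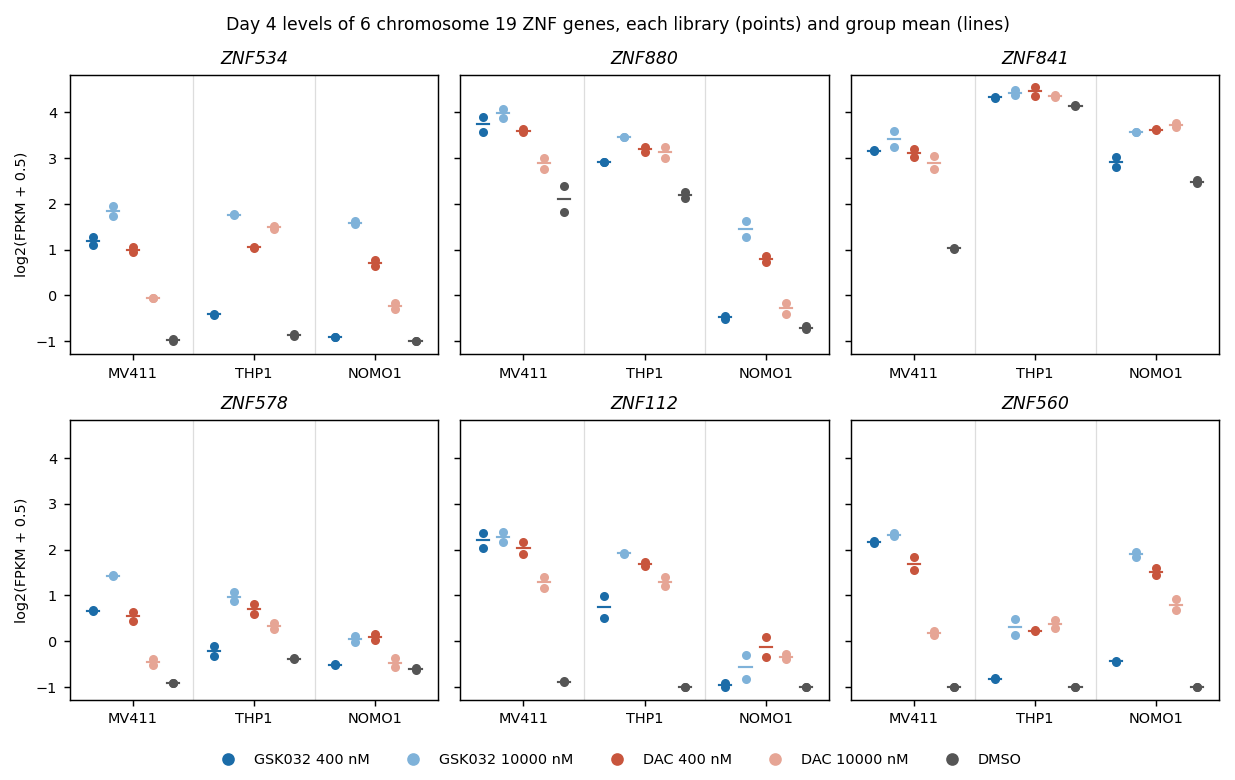
Levels of ZNF534, ZNF880, ZNF841, ZNF578, ZNF112 and ZNF560 at day 4 as log2(FPKM + 0.5), each point 1 library, with GSK032 and DAC at 400 and 10000 nM left of DMSO, in each line. ZNF534 is near the floor in DMSO in all 3 lines and reaches 2.85 and 3.36 FPKM with 10000 nM GSK032 in MV411.

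Some genes could be tested in some lines only. ZNF541 passed the level filter in NOMO1 alone and ZNF844 in THP1 alone, so neither could be called elsewhere. Both, and ZNF486 in THP1, passed only with treated libraries, so a rise over DMSO was built into their choice. ZNF541 (outside clusters; its mouse counterpart acts in spermatogenesis) had 0.222 and 0.281 FPKM with GSK032 and 1.66 and 1.55 with DAC in NOMO1, against 0.0837 and 0.0806 in DMSO, a DAC change of 1.86 ± 0.13. ZNF844 (C3) had 0.347 and 0.336 FPKM with GSK032 and 2.35 and 2.31 with DAC in THP1, against 0.188 and 0.386 in DMSO. ZNF486 (C4) had 1.14 and 1.12 with GSK032 and 3.8 and 3.04 with DAC in THP1, against 0.720 and 0.706. In those 3 genes the DAC libraries alone stood clear of DMSO by more than the fold minimum. ZNF14 (C4) was called in MV411 with both compounds, at 2.16 ± 0.15 with GSK032 and 1.94 ± 0.15 with DAC, and in NOMO1 with DAC at 1.44 (0.90 with a pseudocount of 1). In MV411 and NOMO1 it too passed the filter only with treated libraries. In THP1 ZNF14 was high in every group, at 6.26 and 5.56 FPKM with GSK032, 8.67 and 7.10 with DAC and 6.81 and 5.36 in DMSO.

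Lower calls at this dose and day were 2 in number, both with DAC. ZNF556 (C1) had 3.02 and 3.02 FPKM with GSK032 and 1.55 and 1.39 with DAC in THP1, against 5.50 and 4.81 in DMSO, and DAC lowered it (-1.52 ± 0.14, adjusted p 2.9e-10, limma). ZNF358 (C2) had 3.94 and 4.43 FPKM with DAC in NOMO1, against 8.31 and 10.2 in DMSO (-1.05 ± 0.16); it was -0.91 without DMSO replicate 2, -0.98 without DAC replicate 1 or with a pseudocount of 1, and -0.96 with equal FPKM sums, each under the fold minimum. ZNF146, the most abundant member, had 72.0 and 74.4 FPKM with GSK032 and 72.6 and 65.5 with DAC in MV411, against 105 and 94.0 in DMSO, and was not called.

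ZNF genes on other chromosomes included larger single changes. ZNF595, on chromosome 4, had log2 fold changes of 6.12 ± 0.18 with GSK032 and 5.09 ± 0.18 with DAC in MV411. In THP1 its changes were 4.41 ± 0.24 with GSK032 and 4.58 ± 0.24 with DAC, and NOMO1 cells had 5.33 ± 0.17 with GSK032 and 6.14 ± 0.17 with DAC. It was called in all 6 comparisons, which no chromosome 19 gene was. ZNF300, on chromosome 5, changed by 2.97 ± 0.12 with GSK032 and 2.33 ± 0.12 with DAC in MV411.

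Across lines, 10000 nM GSK032 raised 51 chromosome 19 genes in at least 1 line and 3 of them, ZNF418, ZNF534 and ZNF880, in all 3 (5.88%), against 6.46% of the 3994 genes of any kind raised in at least 1 line. For DAC at 400 nM it was 2 of 35, ZNF534 and ZNF880 (5.71%), against 10.1% of 4056. These shares were not tested. Over the 6 comparisons at 400 nM and day 4, 43 genes rose in at least 1. Over all comparisons against DMSO, 72 rose and 14 fell in at least 1, and 1 did both. Such counts grow with the number of comparisons. The same counts were not made over all genes, so they are descriptions and not a trait of the family.

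The number of genes raised by GSK032 grew with dose up to 10000 nM in THP1 and NOMO1 and levelled off in MV411. In MV411 it raised 0, 0, 10, 30, 38 and 39 of 228 genes at 3.2, 16, 80, 400, 2000 and 10000 nM. All genes were called higher at 0%, 0.00909%, 2.57%, 6.55%, 8.87% and 10.0% at those doses, and the chromosome 19 genes at 0%, 0%, 4.39%, 13.2%, 16.7% and 17.1%. In THP1 the counts were 0, 0, 0, 1, 7 and 10 of 233, and the background was 0.00431%, 0.00431%, 0.0904%, 1.94%, 3.63% and 4.94%. In NOMO1 they were 0, 0, 0, 0, 10 and 20 of 190, and the background was 0.00963%, 0%, 0.0385%, 2.55%, 6.09% and 9.21%. At 10000 nM the share was 4.29% in THP1 and 10.5% in NOMO1, near the background of those lines. Of the 202 MV411 genes passing in DMSO alone, 3.96%, 9.41%, 11.9% and 11.4% rose at 80, 400, 2000 and 10000 nM, against 1.72%, 3.60%, 4.90% and 5.57% of all genes passing in DMSO.

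With DAC the counts did not keep growing. In MV411 they were 0, 0, 6, 23, 28 and 21 of 228 across the same doses, against 0.00909%, 0.0954%, 1.74%, 6.86%, 10.0% and 10.7% of all genes. In THP1 they were 0, 0, 1, 6, 7 and 6 of 233, against 0.0258%, 0.0861%, 1.74%, 6.23%, 9.92% and 11.1%. In NOMO1 they were 0, 0, 4, 19, 18 and 6 of 190, against 0%, 1.04%, 6.51%, 13.2%, 15.4% and 16.1%. From 400 to 10000 nM DAC the share of all genes called higher thus grew in each line, and the chromosome 19 count was lower or level at the top dose.

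Besides the 2 lower calls with 400 nM DAC, lower calls at day 4 came at the top doses. GSK032 lowered 2 and 3 genes in MV411 at 2000 and 10000 nM, against 6.01% and 7.68% of all genes, and DAC lowered 3 and 6, against 9.28% and 12.5%. In THP1 each compound lowered 1 gene at each of these doses, against 1.47% and 2.75% with GSK032 and 4.61% and 5.49% with DAC. In NOMO1 GSK032 lowered 1 gene at each (1.08% and 3.21%), and DAC lowered 1 and 2 (7.88% and 9.43%).

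Tested directly at day 4, 10000 nM GSK032 raised 2 genes over 400 nM in MV411 (ZNF418 and ZNF154, both under the fold minimum with a pseudocount of 1), 7 in THP1 and 8 in NOMO1, and lowered 0 in each. These are 0.877%, 3.00% and 4.21% of the genes tested, against 1.49%, 1.48% and 5.02% of all genes called higher, so the THP1 share alone was above its background. Of the genes passing in DMSO alone, 0 of 218 were higher in THP1, against 0.437% of all such genes. ZNF844 in THP1 had 4.58 and 4.66 FPKM at 10000 nM, against 0.347 and 0.336 at 400 nM, a change of 2.60 ± 0.12. ZNF486 in THP1 had 5.87 and 5.97 FPKM at 10000 nM, against 1.14 and 1.12 at 400 nM (1.98 ± 0.14). ZNF534 in NOMO1 had 2.43 and 2.57 FPKM at 10000 nM, against 0.0358 and 0.0323 at 400 nM (2.49 ± 0.10). ZNF560 in NOMO1 had 3.37 and 3.09 FPKM at 10000 nM, against 0.246 and 0.229 at 400 nM (2.34 ± 0.12). These 4 are among the largest calls of the comparison. Each passed the level filter in the line given only with treated libraries, so high treated values were built into their choice.

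The same step with DAC raised 0 genes in each line and lowered 3 in MV411, 0 in THP1 and 3 in NOMO1, against 2.66%, 2.85% and 3.02% of all genes called higher and 3.04%, 1.11% and 2.17% called lower. In THP1, where limma called 0, 115 genes had an unadjusted p under 0.05 and 82 an adjusted p below 0.05. ZNF560 in MV411 had 0.595 and 0.671 FPKM at 10000 nM, against 2.42 and 3.09 at 400 nM (-1.52 ± 0.16). ZNF534 there had 0.456 and 0.464 at 10000 nM, against 1.59 and 1.42 at 400 nM, and its call ended with a pseudocount of 1 (-0.78). ZNF429 in NOMO1, a C4 gene, had 1.49 and 1.57 at 10000 nM, against 4.20 and 4.01 at 400 nM (-1.18 ± 0.13), the higher dose standing below the DMSO libraries at 3.62 and 3.57. The MV411 count depends on scaling: with equal FPKM sums it was 16 in place of 3.

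Over time at 400 nM, calls began at day 2 and were most numerous at day 6 in MV411. GSK032 raised 0, 8, 30 and 44 of its 228 genes at days 1, 2, 4 and 6, against 0.136%, 1.73%, 6.55% and 8.22% of all genes, and 44 is 19.3%. DAC raised 0, 5, 23 and 39, against 0.404%, 2.46%, 6.86% and 7.03%, and 39 is 17.1%. In THP1 GSK032 raised 0, 0, 1 and 2 (background 0.0129%, 0.336%, 1.94% and 3.29%) and DAC 0, 2, 6 and 5 (background 0.116%, 1.15%, 6.23% and 7.26%). In NOMO1 GSK032 raised 0, 0, 0 and 4 (background 0.0241%, 0.352%, 2.55% and 4.25%) and DAC 0, 1, 19 and 24 (background 0.380%, 3.55%, 13.2% and 14.9%). At day 6 GSK032 lowered 1 gene in each line, against 4.23%, 0.788% and 0.987% of all genes in MV411, THP1 and NOMO1, and DAC lowered 1 in THP1 (3.84%) and 2 in NOMO1 (9.75%).

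ZNF112 in MV411 gives the course in single libraries. With 400 nM GSK032 it had 0.106 and 0.317 FPKM at day 1, 2.08 and 1.79 at day 2, 4.68 and 3.60 at day 4, and 7.41 and 7.36 at day 6. DMSO libraries stayed between 0.0390 and 0.140 across the 4 days. ZNF560 in MV411 had 0.0123 and 0.0474 FPKM at day 1, 1.11 and 1.17 at day 2, 4.06 and 3.90 at day 4, and 4.98 and 5.99 at day 6. The DMSO level itself moved for some members: ZNF14 in MV411 had 0.0652 and 0.0528 FPKM in day 6 DMSO libraries, against 0.273 and 0.454 at day 1, and ZNF841 had 0.533 and 0.552 at day 6, against 1.70 and 2.09 at day 1. A day 6 fold change of those genes is taken against the lower day 6 DMSO level.

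The day 6 effect minus the day 1 effect was tested as an interaction. With GSK032 it was higher for 38 genes and lower for 1 in MV411, against 7.40% of all genes called higher and 4.19% called lower. THP1 had 2 higher and 0 lower, against 2.73% of all genes higher, and NOMO1 had 0 in both directions, against 3.51% higher. In NOMO1, where limma called 0, 63 genes had an unadjusted p under 0.05 and 38 an adjusted p below 0.05. With DAC the counts were 31 higher and 1 lower in MV411, 8 and 0 for THP1, and 23 and 1 for NOMO1, against 5.35%, 6.04% and 12.5% called higher, and 3.07% called lower in MV411 and 8.03% in NOMO1. The share of chromosome 19 genes with a larger day 6 effect was 16.7% with GSK032 and 13.6% with DAC in MV411, and at most 12.1% in the other lines. Of the MV411 genes passing in DMSO alone it was 11.4% with GSK032 and 8.91% with DAC, against 5.05% and 3.35% of all such genes.

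**Figure D5:**
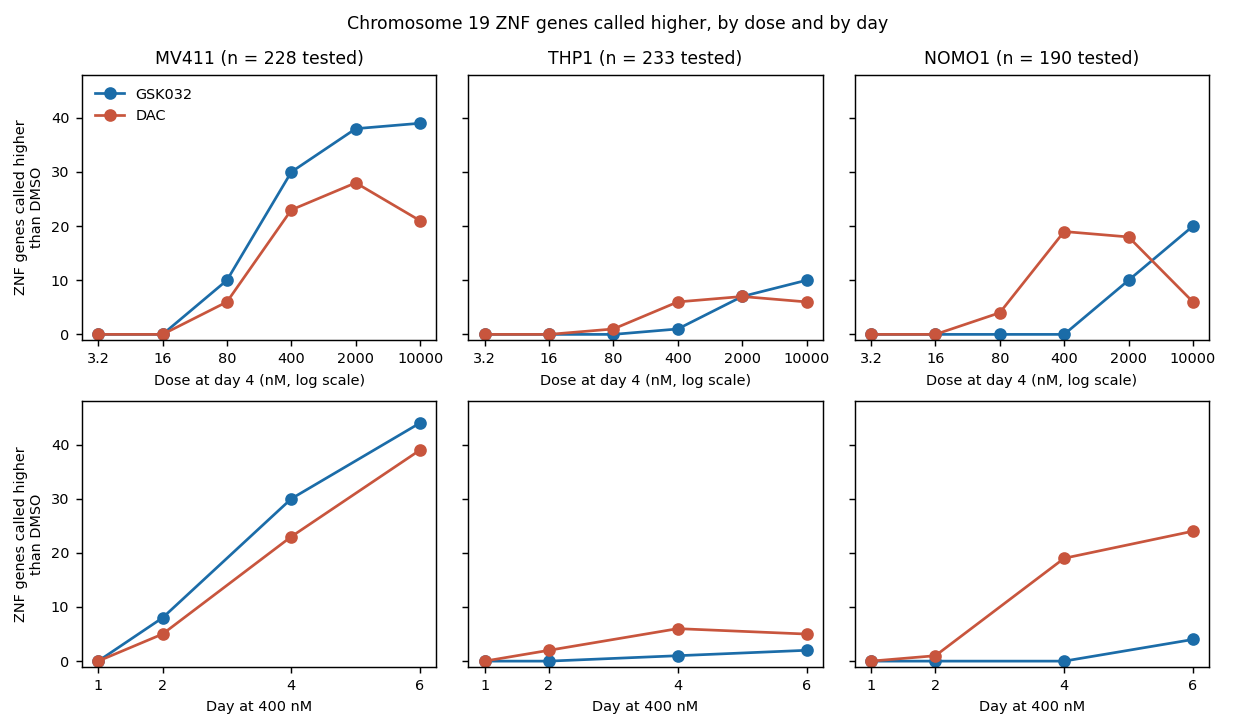
Number of chromosome 19 ZNF genes called higher against DMSO, by dose at day 4 (3.2 to 10000 nM, log axis) and by day at 400 nM, for GSK032 and DAC in each line. In MV411 GSK032 reaches 39 genes at 10000 nM and 44 at day 6, and DAC peaks at 28 genes at 2000 nM.

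GSK032 and DAC were also set against each other at 400 nM and day 4. In MV411 0 genes were called in either direction by limma, against 0.682% of all genes higher with GSK032 and 1.23% lower; 30 had an unadjusted p under 0.05 and 7 an adjusted p below 0.05. The ZNF112 difference there was 0.17 with a 95% confidence interval from -0.19 to 0.52, and the ZNF560 difference was 0.47 with an interval from 0.15 to 0.79. In THP1 3 genes were lower with GSK032 than with DAC, ZNF844 (-1.75 ± 0.12), ZNF534 (-1.47 ± 0.12) and ZNF486 (-1.26 ± 0.14), against 2.99% of all genes lower with GSK032 and 1.54% higher. In NOMO1 10 genes were lower, among them ZNF560 (-1.96 ± 0.12), ZNF534 (-1.61 ± 0.10) and ZNF541 (-1.49 ± 0.13), and 0 were higher, against 9.73% of all genes lower and 3.50% higher.

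GSK862 at 1000 nM, a second DNMT1 inhibitor at another dose, raised 20 of 228 genes in MV411 at day 4 (8.77%, against 4.20% of all genes called higher), 1 in THP1 (0.429%, against 1.17%) and 0 in NOMO1 (against 2.41%), and lowered 0. In MV411 the paired columns of GSK862, and those of GSK477, carry the same replicate number at day 4, so which library is which is unknown. Of the 202 MV411 genes passing in DMSO alone GSK862 raised 11 (5.45%), against 2.54% of all such genes. The NOMO1 comparison had 66 genes at an unadjusted p under 0.05, 53 of them higher. ZNF112 had 2.92 and 3.78 FPKM with GSK862 in MV411, against 0.0476 and 0.0390 in DMSO (2.81 ± 0.17), and 0.931 and 0.994 in THP1 (1.54 ± 0.15, or 0.97 with a pseudocount of 1). At day 2 it raised 4 genes in MV411, against 1.35% of all genes, and 0 in the other lines, against 0.207% in THP1 and 0.376% in NOMO1.

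GSK477 at 10000 nM called 0 chromosome 19 ZNF genes by limma at day 4, against 0.477%, 0.0387% and 0.212% of all genes in MV411, THP1 and NOMO1; 21, 16 and 11 had an unadjusted p under 0.05. The medians were -0.001, -0.01 and 0.03. ZNF112 in MV411 had 0.0568 and 0.0714 FPKM with GSK477, against 0.0476 and 0.0390 in DMSO.

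Some genes that were silent in DMSO reached 1 FPKM under treatment. Of the 21 with a DMSO mean under 0.1 FPKM in MV411, 4 had 1 FPKM or more in both libraries with 400 nM GSK032, 3 with 400 nM DAC, 2 with GSK862 and 0 with GSK477. Of the 9 in THP1, 0 did so with 400 nM GSK032 and 2 with DAC. Of the 36 in NOMO1, 0 did so with 400 nM GSK032, 4 with 10000 nM GSK032 and 3 with 400 nM DAC. The group was chosen on the DMSO level, and the same share was not counted over all genes. These counts are thus a description. ZNF135 in MV411, one of the 7 that passed nowhere, had 0.734 and 0.820 FPKM with 10000 nM GSK032, against 0.00821 and 0.0181 in DMSO.

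Protein and promoter features of the raised genes are given as descriptions, with no test. The 43 genes raised at 400 nM and day 4 had a median of 12 zinc fingers by sequence pattern, as did the 199 that passed and were not raised. A strict KRAB box pattern was found in 34 of the 43 (79.1%) and in 135 of the 199 (67.8%); its absence does not show that a KRAB domain is lacking. Promoters of the raised genes had a median of 21.5 CG dinucleotides, against 20 in the others. Related genes share sequence, which can move reads between them: a median of 8.66% of the 31-base words of the raised genes also occurred in another gene, against 10.2% for the others. The share was 0.678% for ZNF560, 4.14% for ZNF534, 4.74% for ZNF880, 11.7% for ZNF112, 15.6% for ZNF841 and 20.4% for ZNF486.

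Corepressor partners of KRAB proteins are described by their counts. Of 20 such genes, GSK032 at 400 nM and day 4 called 0 in each line, with medians of -0.29, -0.26 and -0.06 in MV411, THP1 and NOMO1. Of all genes, GSK032 called 9.31%, 2.27% and 2.93% in either direction in the same lines and DAC 10.2%, 8.16% and 19.1%, so counts over so few genes say little. DAC lowered CBX5, a heterochromatin protein, in MV411 (-1.12) and raised KIAA1551 in THP1 (1.01) and NOMO1 (1.25). TRIM28, the direct KRAB partner, was at -0.57, -0.26 and -0.35 with GSK032 and at -0.58, -0.33 and -0.72 with DAC in the 3 lines, and was not called. Of 9 genes of DNA methylation and its maintenance, DNMT3A and DNMT3B among them, GSK032 lowered PCNA and CDCA7 in MV411 and 0 elsewhere. DAC lowered PCNA, CDCA7 and UHRF1 in MV411 and CDCA7 alone in THP1 and NOMO1. DNMT1 itself was not called, at -0.42, -0.27 and -0.06 with GSK032 and -0.69, -0.64 and -0.40 with DAC.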

How the data were processed

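RNA was measured by paired-end sequencing of total RNA in 156 libraries. The deposited values are FPKM per gene in 1 table a line; Salmon 0.12.0, DESeq2 and hg38 are named in the submitters' processing notes, and the strand setting is not given in the sources used here. FPKM keeps no counts, so depth is unknown and a count test was not used. Of 59939 identifiers, 56511 matched GENCODE 29, which gave symbols, positions and coding sequence. The members and gene lists were chosen with earlier results of these data known.

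Genes with FPKM of 1 or more in 2 or more libraries of a line were tested with limma 3.58.1 (R 4.3.3, trend on) on log2(FPKM + 0.5), over 26 group means with 26 residual degrees of freedom, and p-values were adjusted by Benjamini-Hochberg over all genes tested. In simulated data of 23226 genes, 189 of 200 genes changed by 2 on the log2 scale were recovered, with 4 false calls among the unchanged genes. The changed genes were drawn from those with a mean log2 level above 2. Recovery of genes near the floor in DMSO, such as ZNF560, ZNF112 and ZNF534, was thus not tested. The alternatives were a pseudocount of 1, equal FPKM sums, no level filter, a 500 kb cluster gap, a replicate block and leaving out each library. Named genes are the largest called changes per line and comparison, those called in all 3 lines, the 3 highest DMSO levels and cluster ends. Genes named outside that rule are ZNF578, ZNF676 and the others under 0.1 FPKM or never passing, and listed cofactors. Promoters are RefSeq (GRCh38.p14), matched by symbol for 217 of 249 genes.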

Additional observations from a re-analysis of the deposited data

Results flagged for a closer look

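Among the genes whose 400 nM effect differed between day 6 and day 1, the 17 gene and line pairs with the largest differences per comparison and direction are given, each tested as an interaction in limma (log2 scale, day 6 effect minus day 1 effect, adjusted p below 0.05). With GSK032 in MV411 the differences were 3.59 for ZNF112, 3.51 for ZNF560, 3.48 for ZNF14 and -1.40 for ZNF358. With GSK032 in THP1 they were 2.35 for ZNF112 and 1.25 for ZNF486.

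With DAC in MV411 they were 2.83 for ZNF112, 2.80 for ZNF14, 2.58 for ZNF560 and -1.07 for ZNF460. With DAC in THP1 they were 2.17 for ZNF486, 2.11 for ZNF844 and 1.93 for ZNF112. With DAC in NOMO1 they were 2.36 for ZNF560, 1.84 for ZNF541, 1.82 for ZNF14 and -1.19 for ZNF749. The genes with differences above 0 here passed the level filter of their line only with treated libraries. A rise was thus built into their choice.

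For ZNF14 in MV411 the DMSO libraries moved too: they had 0.0652 and 0.0528 FPKM at day 6, against 0.273 and 0.454 at day 1. For ZNF358 in MV411 the day 6 DMSO libraries were 7.34 and 12.6 FPKM, and without the second of them the difference was -1.03 with an adjusted p of 0.07. The ZNF460 difference lost its call without DMSO day 1 replicate 2 (-0.86), DMSO day 6 replicate 1 (-0.66) or DAC day 1 replicate 2 (-0.82), and with equal FPKM sums (-1.16). ZNF749 in NOMO1 was -0.90 with equal FPKM sums. Their part in the differences was not tested further.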

How the results depend on the processing

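Of the counts of called genes and the DMSO medians, 46 of 57 were kept with equal FPKM sums. It was 45 of 54 with a pseudocount of 1, 53 of 54 without the level filter and 50 of 50 with a replicate block. A count was kept when it stayed within 1.5 times its main size, or when a 0 stayed 0. Many counts were 0 in the main fit, so these shares say less about the counts above 0. The DMSO medians were judged by the SD of the library medians. The cause of each move was not tested. With a pseudocount of 1, which shrinks the folds of low genes by construction, the genes higher at 10000 than 400 nM GSK032 were 0 in MV411 and 4 in THP1, and those lower at 10000 than 400 nM DAC were 1 in MV411. The day 6 minus day 1 counts in THP1 were 1 with GSK032 and 4 with DAC, GSK862 raised 0 genes in THP1, and 400 nM DAC in NOMO1 raised 11 and lowered 0. The NOMO1 genes lower with GSK032 than with DAC were 5.

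With equal FPKM sums, the genes higher at 10000 than 400 nM GSK032 were 1 in MV411, and those lower at 10000 than 400 nM DAC were 16. The genes higher at 10000 nM DAC were 1 in THP1. The day 6 minus day 1 effect of DAC was lower for 0 genes in MV411, higher for 5 and lower for 1 in THP1, and lower for 0 in NOMO1. In NOMO1, 400 nM GSK032 raised 1 gene and 400 nM DAC lowered 0, and the GSK032 day 6 minus day 1 effect was higher for 1, as it was without the level filter. In THP1, 1 gene was higher with GSK032 than with DAC. With this scaling the median of all genes was -0.39 for 10000 against 400 nM DAC in MV411, and -0.085 in the main fit. For GSK032 against DAC in MV411 it was 0.38, and 0.032 in the main fit. The chromosome 19 median changed sign with this scaling for 400 nM DAC in THP1 (-0.12) and for GSK032 against DAC in MV411 (0.31) and THP1 (0.18). It did so for the DAC day 6 minus day 1 effect in THP1 (-0.060) and for 10000 against 400 nM GSK032 in MV411 (-0.095). For GSK477 it changed sign in THP1 (0.083) and NOMO1 (-0.011). The chromosome 19 median minus that of all genes kept its sign in every comparison except the DAC day 6 minus day 1 and the GSK477 comparisons in THP1.

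Leaving out 1 library at a time gave 26 to 30 genes raised by 400 nM GSK032 in MV411 and 21 to 25 by DAC, 1 and 5 to 7 in THP1, and 19 to 21 with DAC in NOMO1. Counts that moved were small. In MV411 they were 0 to 1 lower with either compound at 400 nM (1 without GSK032 replicate 2 or DAC replicate 1), 0 to 2 higher at 10000 than 400 nM GSK032 (0 without 400 nM replicate 1), 5 to 7 lower at 10000 than 400 nM DAC whichever library was left out, and 0 to 1 lower for the day 6 minus day 1 effect of either compound. In THP1 the day 6 minus day 1 effect of GSK032 was higher for 2 to 5 (5 without DMSO day 1 replicate 2) and lower for 0 to 1, that of DAC was lower for 0 to 1, 10000 nM DAC was higher for 0 to 1, GSK862 lowered 0 to 2 (2 without DMSO replicate 1), and 3 to 5 were lower with GSK032 than with DAC (5 without GSK032 replicate 2). In NOMO1, 400 nM GSK032 raised 0 to 1 (1 without DMSO replicate 2), 10000 nM GSK032 lowered 0 to 1 against 400 nM, its day 6 minus day 1 effect was higher for 0 to 2 and lower for 0 to 1, DAC at 400 nM lowered 0 to 2, 10000 nM DAC lowered 3 to 7 against 400 nM (7 without 10000 nM replicate 2), and the DAC day 6 minus day 1 effect was lower for 1 to 2.

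Of single-gene results, 86 of 107 kept their call with a pseudocount of 1 and 101 of 107 with equal FPKM sums; 555 of 576 did so over the left-out libraries. ZNF418 in MV411 was at 0.70 without DMSO replicate 2 with 400 nM GSK032. The deviations of same-numbered libraries had a median correlation between groups of 0.080 (MV411), 0.081 (THP1) and 0.088 (NOMO1). Over 0.1 were 101 of 276 pairs of MV411 groups, up to 0.417, 93 of 325 of THP1 and 112 of 325 of NOMO1. Since not every pair was over 0.1, the numbers were not used to pair the libraries in the main fit. That rule cannot show that same-numbered libraries were unrelated. The MV411 GSK862 and GSK477 day 4 libraries, without a replicate number of their own, were left out of the block, and the replicate block changed no single-gene call among 99. Depth is unknown, so levels near 0 cannot be bounded.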
